A study of Homo sapiens with 14 samples.

Results

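The genes described here are 32 human genes that open, copy and join DNA or make its building blocks. They were chosen by symbol from a table of 62699 genes, and all 32 passed the filter on low counts in each comparison. By role, 7 form the group called MCM helicase here: the ring subunits MCM2, MCM3, MCM4, MCM5, MCM6 and MCM7, and MCM10, which is not part of the ring. The others are 5 of the GINS complex with CDC45 (GINS1, GINS2, GINS3, GINS4, CDC45), 2 origin licensing factors (CDC6, CDT1), 5 of the sliding clamp and its loader (PCNA, RFC2, RFC3, RFC4, RFC5), 3 of the polymerases and primase (POLA1, POLE, PRIM1), 2 of flap removal and ligation (FEN1, LIG1), 3 of nucleotide synthesis (RRM1, RRM2, TYMS) and 5 that control entry into S phase or its checkpoint (UHRF1, E2F1, CCNE1, CCNE2, CLSPN).

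In dividing cells, CDC6 and CDT1 load the MCM ring onto replication origins during G1. When S phase starts, CDC45 and GINS join the ring to form the moving helicase, primase with polymerase alpha lays down primers, RFC loads the PCNA clamp, and polymerase epsilon, FEN1 and LIG1 extend and join the strands. Ribonucleotide reductase (RRM1 with RRM2) and thymidylate synthase (TYMS) supply deoxynucleotides, and E2F1, released from RB when cyclin E and CDK2 are active, turns on transcription of many of these genes, which is why they are widely read as a sign of cells in S phase.

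The study asked how ADAR1, the enzyme that turns adenosine into inosine in double-stranded RNA, and the nucleolar protein NOP14 act on transcription in cancer cells. MDA-MB-231 and BT-549 (both triple-negative breast cancer lines), NCI-H1395 (lung adenocarcinoma) and AGS (gastric cancer) each gave 1 library with control siRNA and 2 with siRNA against ADAR, numbered 1 and 2. Such siRNAs are short RNA duplexes whose guide strand leads the cell to cut a matching transcript. MDA-MB-231 also gave 1 library with NOP14 overexpression and 1 control library named PCDH, and no dose, time or genotype is given for any of the 14 libraries in the labels. All groups were poly(A)-selected RNA of established lines with no other stated treatment.

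Total counts ranged from 13338338 to 27828376 per library, and the 32 genes together took 0.23% to 0.479% of them. The targeted transcript, ADAR (hg38 chromosome 1, 154581695 to 154628013), stood at 32.3% and 33.8% of control in MDA-MB-231, 12.9% and 11.5% in BT-549, 10.6% and 11.9% in NCI-H1395, with AGS at 17.6% and 24.0%. BT-549 and NCI-H1395 thus had the lowest ADAR levels relative to control. Gastrointestinal markers summed to between 203 and 406 CPM in AGS and immune markers to at most 1.21 CPM in any line. The AGS sum came from CDX2 (49.4 to 86.8 CPM) and CDH17 (120 to 317 CPM). CLDN18, TFF1 and MUC5AC were each at most 2.34 CPM there. ESR1 and PGR were at or near 0 in both breast lines, and in the lung and gastric lines as well. ERBB2 stood at 58.2 to 99.5 CPM in MDA-MB-231 and 99.7 to 132 CPM in BT-549, beside 86.5 to 176 CPM in AGS. The lung markers NKX2-1, NAPSA, SFTPB and SFTPC summed to at most 1.32 CPM in NCI-H1395, so these defining markers were nearly absent there. Of the epithelial markers in that line, EPCAM, CDH1 and KRT19 were each at most 0.716 CPM. KRT8 stood at 166 to 238 CPM and KRT18 at 389 to 582 CPM. Of the mesenchymal markers, VIM stood at 1440 to 2507 CPM, ZEB1 at 66.7 to 87.0, CDH2 at 58.1 to 82.0 and FN1 at 11.05 to 11.64 CPM. In MDA-MB-231, 168 genes at the end of chromosome 9 (127087348 to 138124624) had a median log2 ratio of -0.95 and -0.72 to control, and in AGS library 1 of -0.39. None of the 32 genes lies on that chromosome. Replication-dependent histone transcripts summed to between 2766 and 5066 CPM when MDA-MB-231 had received an siRNA (3 libraries) and to 106.5 and 112.9 CPM in its vector libraries, so the siRNA and vector libraries of that line stand apart and are not compared with each other.

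Because E2F factors bind short words in many S phase promoters, the promoter windows of the 32 genes were searched for 4 such words (TTTCCCGC, TTTCGCGC, TTTGCCGC and TTTGGCGC) on both strands. RefSeq windows on GRCh38.p14 were matched for 28 of the 32 genes, and MCM4, MCM5, GINS4 and CCNE2 had no entry. In the 250 bases before the start, 13 of the 28 (46.4%) held at least 1 E2F word, against 2.79% of 27305 windows. The word CCAAT stood in 64.3% of the 28 and in 33% of all windows, and TTTGAA, the core of the element found in many G2 and mitosis promoters, in 3.57% and 13.6%. The 4 stretches printed here are those around the words of a member that share no base with an annotated exon. They show where the letters stand, with the words in capitals and each written 5′ to 3′ on the strand of the gene. The first is chr2:135876502-135876615 (minus strand), the second chr6:52284889-52284936 (minus), the third chr20:5126654-5126701 (minus) and the last chrX:24693761-24693808 (plus).
MCM6: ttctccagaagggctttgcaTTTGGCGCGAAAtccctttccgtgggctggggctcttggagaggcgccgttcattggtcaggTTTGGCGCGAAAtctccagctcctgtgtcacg
MCM3: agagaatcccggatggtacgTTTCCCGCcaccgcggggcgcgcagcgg
PCNA: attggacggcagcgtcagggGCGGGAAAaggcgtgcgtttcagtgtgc
POLA1: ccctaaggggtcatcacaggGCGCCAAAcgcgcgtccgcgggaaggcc
MCM6 carried 4 words at 2 places, since each TTTGGCGCGAAA holds TTTGGCGC and, on the other strand and overlapping it, TTTCGCGC. MCM3, PCNA and POLA1 carried 1 word each, 174, 59 and 137 bases before the start. The median log2 fold change over the 4 lines was -0.41 in the 13 genes with a word and -0.41 in the 15 without. A match of letters is a description and was not tested as a binding site.

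With ADAR siRNA the 32 genes were lower than control as a group in MDA-MB-231, NCI-H1395 and AGS and near control in BT-549. In scaled CPM (CPM, the count of a gene relative to its library size after TMM scaling), the median of the 32 genes stood at 62.7% and 75.5% of control in the MDA-MB-231 libraries 1 and 2, at 70.9% and 54.0% in NCI-H1395 and at 71.6% and 74.6% in AGS. In BT-549 it stood at 97.3% and 90.6%. The lowest single value was PCNA in NCI-H1395 library 2 (35.6% of control), and the highest was MCM5 in BT-549 library 1 (128%). On the log2 scale the medians were -0.67 and -0.40 in MDA-MB-231, -0.04 and -0.14 in BT-549, -0.50 and -0.89 in NCI-H1395, with AGS at -0.48 and -0.42, beside medians of all genes between -0.02 and 0.07 in the same libraries. In bulk RNA, fewer cells in S phase and less of these transcripts per cell cannot be told apart.

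**Figure D1:**
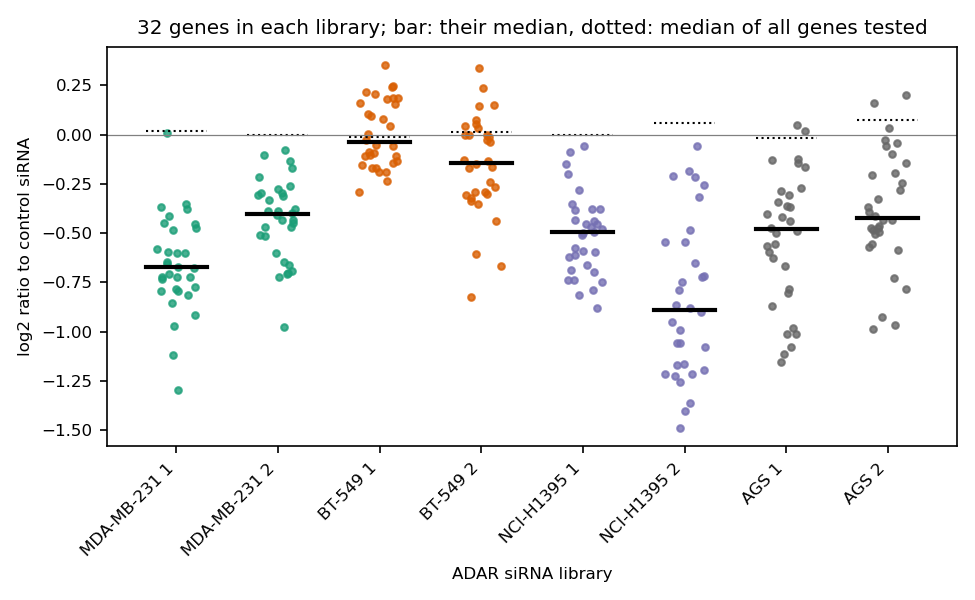
Each point is 1 of the 32 genes, plotted by its log2 ratio of scaled CPM to the control siRNA library of its line (vertical axis) in each of the 8 ADAR siRNA libraries (horizontal axis); solid bars are the medians of the 32 genes and dotted bars those of all genes tested. The 2 BT-549 libraries sit around 0 (medians -0.04 and -0.14), and the other 6 have medians between -0.89 and -0.40.

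Each line has 1 control library, so the 2 ratios of a line share their denominator, and the comparisons over the lines, within a line and between lines all use the same controls. Relative to control, 31 of the 32 genes were lower in both MDA-MB-231 libraries (34% of all genes were), 32 in both NCI-H1395 libraries (30.8%) and 27 in both AGS libraries (26.6%). BT-549 had 13 genes lower in both libraries (28.7%) and 4 higher in both (25.9%), namely GINS4, POLE, UHRF1 and E2F1. Across all 8 ADAR siRNA libraries, 11 genes were lower than control (2.96% of all genes were): MCM10, GINS3, CDT1, PCNA, RFC3, RFC4, FEN1, RRM1, RRM2, TYMS and CLSPN. These 11 hold members of each role except the polymerases and primase. Such shares of all genes are out of 23959 genes tested, here and in the comparison of BT-549 with the other lines below. They include genes with 0 counts in both an ADAR siRNA library and its control, which cannot count as lower or higher there. Between 20846 and 22565 of them had a ratio in a given library.

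**Figure D2:**
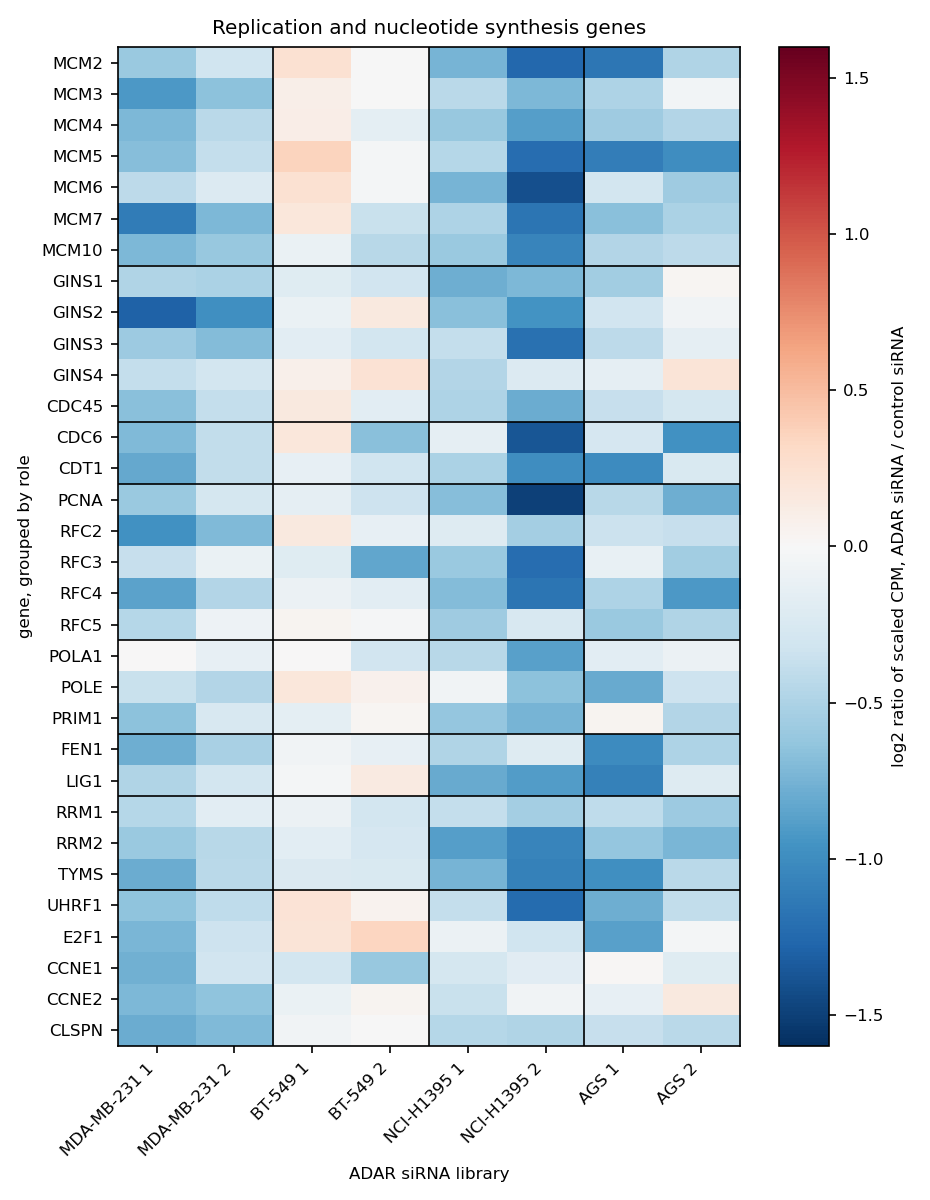
Log2 ratio of scaled CPM to the control siRNA library of the same line for each of the 32 genes (rows, in blocks by role: MCM helicase, GINS and CDC45, licensing, clamp and loader, polymerases and primase, flap and ligation, nucleotide synthesis, control of S phase entry) in the 8 ADAR siRNA libraries (columns); blue is below and red above control. NCI-H1395 library 2 holds the lowest value (PCNA, -1.49), and the BT-549 columns are the palest.

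The main test over the 4 lines summed the 2 ADAR siRNA libraries of each line and kept line as a term, which leaves 3 residual degrees of freedom. Its p-values set the mean response against how far the responses of the 4 lines differ. All 32 genes had a log2 fold change below 0, from -0.57 for TYMS to -0.10 for GINS4, with a median of -0.41. Over the 21944 genes tested the median was 0.06. None of the 32 passed an adjusted p of 0.05 by edgeR's quasi-likelihood test, where 0.0182% of all genes did, and RRM2 came nearest (edgeR adjusted p = 0.107). At an unadjusted p under 0.05, 27 of the 32 were lower, against 5.08% of all genes. DESeq2, the other count test run, called 13 of them lower (4.76% of the genes it gave an adjusted p): MCM4, MCM7, MCM10, GINS1, CDC6, CDT1, PCNA, RFC3, RFC4, FEN1, RRM1, RRM2 and TYMS. The call thus depended on the tool while the direction did not.

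Within a line the spread is taken from how far libraries 1 and 2 of each line lie apart, with 4 residual degrees of freedom. In MDA-MB-231 all 32 genes were below 0 with a median log2 fold change of -0.52. None passed the adjusted threshold of edgeR (0.0751% of all genes did) or of DESeq2, and 11 were lower at an unadjusted p under 0.05 (2.75% of all genes). NCI-H1395 had all 32 below 0 and a median of -0.73, with none called by edgeR (0.00417% of all genes), 19 lower at an unadjusted p under 0.05 (2.17%) and 1, RRM2, called by DESeq2 (0.128% called lower). In AGS 30 of the 32 were below 0, with a median of -0.47, none called by edgeR (0.00417%) or DESeq2 and 6 lower at an unadjusted p under 0.05 (2%). BT-549 had 19 of 32 below 0 and a median of -0.04, with none called by edgeR (0.00417%) or DESeq2 and none at an unadjusted p under 0.05. The smallest adjusted p by edgeR was 0.319 for GINS2 in MDA-MB-231, 0.379 for RRM2 in NCI-H1395 and 0.643 for MCM5 in AGS.

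The MCM helicase group, MCM10 included, had a median log2 fold change of -0.49 over the 4 lines, and all 7 were lower at an unadjusted p under 0.05. For this and the other roles, the share of all genes lower at that level was 5.08%. DESeq2 called 4.76% of the genes it gave an adjusted p lower over the lines. MCM10, which helps to start the assembled helicase, had the smallest p of the 7 over the lines. It (hg38 chromosome 10, 13161558 to 13211110) measured 86.2 and 93.7 CPM under ADAR siRNA versus 142 CPM in the control of MDA-MB-231, 83.7 and 66.6 versus 90.4 CPM in BT-549, 45.7 and 33.2 versus 69.1 CPM in NCI-H1395, and 41.6 and 43.4 versus 57.7 CPM in AGS. All 8 ADAR siRNA values lay below the control of their line, and the fold change across lines was -0.52 ± 0.12 on the log2 scale (SE; edgeR adjusted p = 0.140). MCM7, a subunit of the ring (chromosome 7, 100092233 to 100101940), measured 139 and 182 versus 301 CPM in MDA-MB-231, 542 and 372 versus 476 CPM in BT-549, 522 and 327 versus 735 CPM in NCI-H1395, and 147 and 165 versus 234 CPM in AGS. Only BT-549 library 1 was above its control, and the log2 fold change across lines was -0.56 ± 0.13 (edgeR adjusted p = 0.154). MCM7 shares exon bases with AP4M1 on the opposite strand and holds MIR93, so reads there are uncertain in origin.

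MCM5, another ring subunit (chromosome 22, 35400134 to 35425431), showed the widest gap between BT-549 and the other lines. It measured 217 and 166 CPM under ADAR siRNA versus 170 CPM in the control of BT-549, 93.2 and 114 versus 149 CPM in MDA-MB-231, 189 and 111 versus 258 CPM in NCI-H1395, and 74.2 and 80.7 versus 160 CPM in AGS. Thus 1 BT-549 value was above and 1 slightly below control, while all 6 outside BT-549 were below theirs. The other 4 subunits of the ring were also nearest to control in BT-549. MCM2, MCM3, MCM4 and MCM6 were between 90.1% and 119% of control in BT-549, between 37.8% and 74.1% in NCI-H1395, between 53.0% and 86.2% in MDA-MB-231, and between 44.9% and 97.2% in AGS. In BT-549 library 1 all 6 ring subunits were above control, from 107% for MCM3 to 128% for MCM5, and MCM10 was not (92.6%). In BT-549 library 2 all 7 were below control, from 73.7% for MCM10 and 78.3% for MCM7 to 99.95% for MCM3.

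GINS and CDC45, the partners that turn the loaded ring into a moving helicase, had a median log2 fold change of -0.41, with 4 of 5 lower at an unadjusted p under 0.05. GINS1 (chromosome 20, 25391008 to 25452700) measured 33.1 and 32.5 CPM under ADAR siRNA versus 46.3 CPM in the control of MDA-MB-231, 98.8 and 91.4 versus 113 CPM in BT-549, 22.4 and 23.5 versus 38.7 CPM in NCI-H1395, and 84.0 and 126 versus 124 CPM in AGS. AGS library 2 was the 1 value not below control, and the log2 fold change across lines was -0.41 ± 0.12 (edgeR adjusted p = 0.223). GINS2 (chromosome 16, 85676198 to 85690073) measured 11.8 and 14.7 versus 28.9 CPM in MDA-MB-231, 30.7 and 36.9 versus 33.2 CPM in BT-549, 41.0 and 33.5 versus 64.9 CPM in NCI-H1395, and 15.4 and 18.3 versus 19.1 CPM in AGS. The MDA-MB-231 values of 40.8% and 50.9% of control were the lowest of any member in those libraries, and the log2 fold change there was -1.12 ± 0.31.

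GINS3 was below control in all 8 libraries, with its lowest value in NCI-H1395 library 2 (43.7%) and its highest in AGS library 2 (90.4%). CDC45, which links the ring to GINS, was below control in 7, with 112% in BT-549 library 1 as the exception. GINS4 had the smallest fold change of the 32 (-0.10 ± 0.14). It was above control in both BT-549 libraries (106% and 118%) and in AGS library 2 (115%), and between 72.3% and 90.4% in the other 5. In BT-549 the log2 fold changes of the 4 GINS genes ran from -0.24 ± 0.28 (GINS1) to 0.16 ± 0.30 (GINS4), and differences between subunits were not tested. GINS4 shares exon bases with opposite-strand transcripts, GPAT4-AS1 among them.

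Both licensing factors were lower over the lines at an unadjusted p under 0.05 and were called by DESeq2. CDT1, which brings the MCM ring to the origin (chromosome 16, 88803789 to 88809258), measured 24.2 and 32.5 CPM under ADAR siRNA versus 42.6 CPM in the control of MDA-MB-231, 74.3 and 65.2 versus 81.4 CPM in BT-549, 142 and 102 versus 202 CPM in NCI-H1395, and 42.0 and 71.3 versus 84.6 CPM in AGS. Every ADAR siRNA value was below its control (log2 fold change -0.50 ± 0.11; edgeR adjusted p = 0.154). CDC6, the ATPase that recruits CDT1 and the ring to the origin (chromosome 17, 40287879 to 40304657), measured 98.5 and 122 versus 161 CPM in MDA-MB-231, 167 and 92.8 versus 147 CPM in BT-549, 53.0 and 22.9 versus 58.8 CPM in NCI-H1395, and 188 and 116 versus 226 CPM in AGS. Its library 1 ran from 61.2% to 113% of control and library 2 from 38.9% to 75.8%.

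A test of library 2 against library 1 over the 8 ADAR siRNA libraries, with line as a block, found CDC6 lower in library 2 by a log2 fold change of -0.62, with an edgeR unadjusted p of 0.0048, and none of the 32 genes passed the adjusted threshold (0.0293% of all genes did). RFC3 was the other member at an unadjusted p under 0.05 (-0.37), so 2 of the 32 were lower there, against 3.18% of all genes, and DESeq2 called none. The direction of CDC6 was not shared by all lines, since in MDA-MB-231 library 2 (122 CPM) was above library 1 (98.5 CPM). Without MDA-MB-231 its log2 fold change was -0.93 and it passed (edgeR adjusted p = 0.0338), as did 0.638% of all genes tested there.

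**Figure D3:**
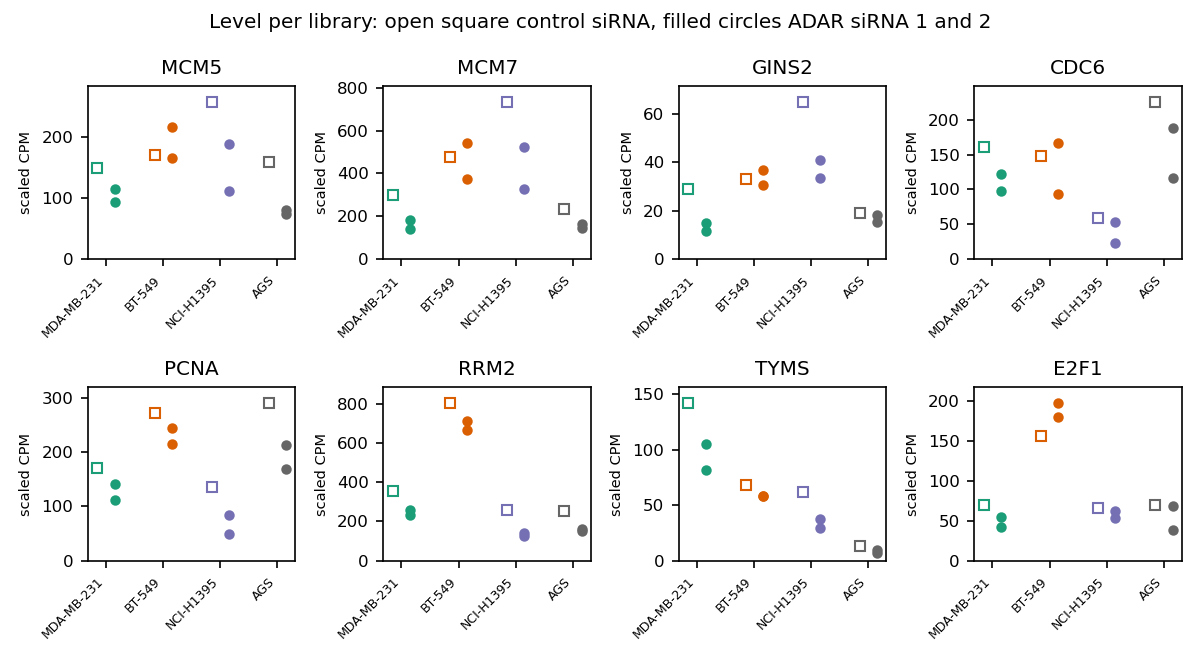
Scaled CPM (vertical axis, from 0, a separate scale for each gene) of MCM5, MCM7, GINS2, CDC6, PCNA, RRM2, TYMS and E2F1 in the 4 lines; open squares are the control siRNA library and filled circles the 2 ADAR siRNA libraries. PCNA, RRM2 and TYMS have all circles below the square of their line, while E2F1 has both circles above it in BT-549.

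The clamp and its loader had a median log2 fold change of -0.45, and all 5 were lower over the lines at an unadjusted p under 0.05. PCNA, the ring that holds polymerases on DNA (chromosome 20, 5114953 to 5126626), measured 113 and 141 CPM under ADAR siRNA versus 170 CPM in the control of MDA-MB-231, 246 and 215 versus 272 CPM in BT-549, 84.1 and 48.2 versus 135 CPM in NCI-H1395, and 214 and 169 versus 291 CPM in AGS. All 8 were below control, with a log2 fold change of -0.54 ± 0.12 over the lines (edgeR adjusted p = 0.154). RFC4, a loader subunit (chromosome 3, 186789880 to 186807058), measured 49.1 and 64.3 versus 88.9 CPM in MDA-MB-231, 53.2 and 50.6 versus 56.6 CPM in BT-549, 38.5 and 27.8 versus 62.4 CPM in NCI-H1395, and 20.7 and 15.4 versus 29.2 CPM in AGS. It was below control in all 8 libraries as well (-0.56 ± 0.14; edgeR adjusted p = 0.162).

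Among the other loader subunits, RFC3 had a log2 fold change in BT-549 (-0.47) equal to the mean of the other 3 lines (-0.47). Its BT-549 level was 108 and 69.6 CPM under ADAR siRNA versus 123 CPM in the control, so library 2 (56.4% of control) was lower than library 1 (87.8%). RFC2 was at 111% and 91.5% of control in BT-549 and between 51.0% and 86.9% elsewhere. RFC5 was at 103% and 99.0% in BT-549 and between 66.2% and 94.6% elsewhere. PCNA, RFC3 and RFC5 have pseudogenes by name in the table, which can take or lend reads.

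The polymerases and primase had the smallest median of the 8 roles (-0.26), and POLE alone was lower at an unadjusted p under 0.05. POLE, the catalytic subunit of the leading strand polymerase (chromosome 12, 132623753 to 132687376), measured 144 and 132 CPM under ADAR siRNA versus 183 CPM in the control of MDA-MB-231, 235 and 217 versus 207 CPM in BT-549, 135 and 89.6 versus 141 CPM in NCI-H1395, and 97.3 and 135 versus 170 CPM in AGS. Both BT-549 values were above control and the other 6 below. PRIM1, the primase catalytic subunit (chromosome 12, 56730438 to 56752374), measured 9.70 and 12.8 versus 15.3 CPM in MDA-MB-231, 22.2 and 25.2 versus 24.6 CPM in BT-549, 24.5 and 22.4 versus 37.7 CPM in NCI-H1395, and 25.6 and 17.8 versus 24.7 CPM in AGS. The values straddled control in BT-549 and AGS, and PRIM1 was not lower at an unadjusted p under 0.05 (-0.32 ± 0.15). POLA1, the catalytic subunit of polymerase alpha, was between 80.8% and 101% of control in 6 libraries and at 73.8% and 54.9% in NCI-H1395.

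FEN1, which trims the flaps of Okazaki fragments, and LIG1, which seals them, were both lower over the lines at an unadjusted p under 0.05. FEN1 (chromosome 11, 61792911 to 61797238) measured 128 and 155 CPM under ADAR siRNA versus 221 CPM in the control of MDA-MB-231, 223 and 211 versus 232 CPM in BT-549, 67.6 and 81.3 versus 94.1 CPM in NCI-H1395, and 47.0 and 67.2 versus 94.7 CPM in AGS. Every value was below control (-0.43 ± 0.12; edgeR adjusted p = 0.196). LIG1 (chromosome 19, 48115445 to 48170603) measured 112 and 127 versus 156 CPM in MDA-MB-231, 71.6 and 80.8 versus 73.1 CPM in BT-549, 32.7 and 30.8 versus 57.4 CPM in NCI-H1395, and 35.1 and 64.3 versus 74.2 CPM in AGS. BT-549 library 2 was its 1 value above control (-0.41 ± 0.14; edgeR adjusted p = 0.266).

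Nucleotide synthesis had the lowest median of the roles (-0.57), and its 3 genes were below control in all 8 libraries and were called by DESeq2. RRM2, the small subunit of ribonucleotide reductase that appears in S phase (chromosome 2, 10120698 to 10211725), measured 234 and 260 CPM under ADAR siRNA versus 355 CPM in the control of MDA-MB-231, 714 and 668 versus 802 CPM in BT-549, 141 and 125 versus 260 CPM in NCI-H1395, and 163 and 152 versus 251 CPM in AGS. The 2 libraries of a line were close to each other in every line, and RRM2 had the smallest p of the 32 (-0.57 ± 0.12; edgeR adjusted p = 0.107). TYMS, which makes thymidylate from deoxyuridylate (chromosome 18, 657653 to 673578), measured 81.9 and 105 versus 142 CPM in MDA-MB-231, 58.1 and 57.9 versus 68.5 CPM in BT-549, 37.2 and 29.4 versus 62.1 CPM in NCI-H1395, and 6.76 and 9.86 versus 13.3 CPM in AGS. Its BT-549 values were 84.8% and 84.5% of control (-0.57 ± 0.13 over the lines; edgeR adjusted p = 0.134), and its exons overlap those of TYMSOS and ENOSF1 on the opposite strand. RRM1, the large reductase subunit, was between 66.7% and 93.7% of control in the 8 libraries. Pseudogenes by name exist for RRM2, TYMS and FEN1.

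The 5 genes that control S phase entry or its checkpoint had a median of -0.30, with 3 lower at an unadjusted p under 0.05 and none called by DESeq2. CLSPN, the checkpoint mediator that travels with the fork (chromosome 1, 35720218 to 35769978), measured 214 and 227 CPM under ADAR siRNA versus 370 CPM in the control of MDA-MB-231, 158 and 163 versus 163 CPM in BT-549, 77.7 and 76.1 versus 107 CPM in NCI-H1395, and 96.4 and 91.9 versus 124 CPM in AGS. BT-549 library 2 was at 99.8% of control and the others at 57.8% to 96.5%. UHRF1, which brings maintenance methylation to newly copied DNA (chromosome 19, 4903080 to 4962154), measured 174 and 205 versus 272 CPM in MDA-MB-231, 218 and 195 versus 188 CPM in BT-549, 157 and 87.0 versus 204 CPM in NCI-H1395, and 76.1 and 99.6 versus 131 CPM in AGS. The BT-549 pair lay above control and the other 6 values below.

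E2F1, the transcription factor that activates many of these genes (chromosome 20, 33675477 to 33686385), was singled out after its values were seen. It measured 180 and 197 CPM under ADAR siRNA versus 156 CPM in the control of BT-549, 41.7 and 55.2 versus 69.4 CPM in MDA-MB-231, 62.1 and 53.1 versus 66.0 CPM in NCI-H1395, and 38.4 and 68.9 versus 70.1 CPM in AGS. Both BT-549 values were above control and the other 6 below, 1 of them by little (98.2% in AGS library 2), and the log2 fold change was 0.27 ± 0.32 in BT-549. The E-type cyclins, which activate CDK2, had log2 fold changes of -0.30 ± 0.14 (CCNE1) and -0.21 ± 0.15 (CCNE2) over the lines, and a difference between them was not tested. CCNE1 had the lowest value of the 32 genes in BT-549 library 1 (81.6% of control, with 65.6% in library 2), and CCNE2 was at 93.0% and 103% there. In MDA-MB-231 CCNE2 was at 60.6% and 63.8% of control and CCNE1 at 58.6% and 80.8%, and in AGS each had 1 library above and 1 below control.

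Set against the other lines, BT-549 had a higher log2 fold change than the mean of MDA-MB-231, NCI-H1395 and AGS for 31 of the 32 genes. The median difference was 0.49, beside -0.01 over all 23959 genes tested. CCNE1 was the exception (-0.16 ± 0.37), and RFC3 stood at 0.00 ± 0.37. No member passed the adjusted threshold in the test of the difference itself by edgeR, and 0% of all genes did (adjusted p = 0.9999 for each of the 32). DESeq2 called none. At an unadjusted p under 0.05, 2 members were higher in BT-549, against 0.952% of all genes: MCM5 (0.96 ± 0.36; edgeR unadjusted p = 0.0142) and MCM2 (0.86 ± 0.36; edgeR unadjusted p = 0.0264). The difference of BT-549 from the other lines was thus not beyond the spread between libraries for any single gene after adjustment. Its direction was not particular to the 32 genes. Of the lists described below, 24 of 25 mitosis genes were also higher in BT-549 (median difference 0.30). So were 31 of 37 other replication machinery genes (0.29), 6 of 7 of chromatin assembly (0.51), 21 of 27 of E2F and G1 control (0.21) and 19 of 28 of other nucleotide synthesis (0.11). Of all 23959 genes, 11713 were higher.

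By role, the median difference was 0.70 for the MCM helicase, 0.57 for flap and ligation, 0.51 for S phase control, 0.49 for nucleotide synthesis, 0.45 for the clamp and loader, 0.40 for licensing, 0.38 for the polymerases and primase and 0.37 for GINS and CDC45. Outside BT-549, 26 of the 32 genes were below control in all 6 libraries (6.03% of all genes were). The 6 that were not are GINS1, GINS4, POLA1, PRIM1, CCNE1 and CCNE2. In 18 of the 32 both BT-549 ratios lay above all 6 ratios of the other lines (6.97% of all genes), among them all 6 ring subunits. MCM10 was not among these 18, nor were the 4 GINS genes, PCNA or both licensing factors. POLE, UHRF1 and E2F1 were above control in both BT-549 libraries and below it in the other 6 (0.764% of all genes). The median difference was 0.58 in the 13 genes with an E2F word before the start and 0.41 in the 15 without, given as a description.

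**Figure D4:**
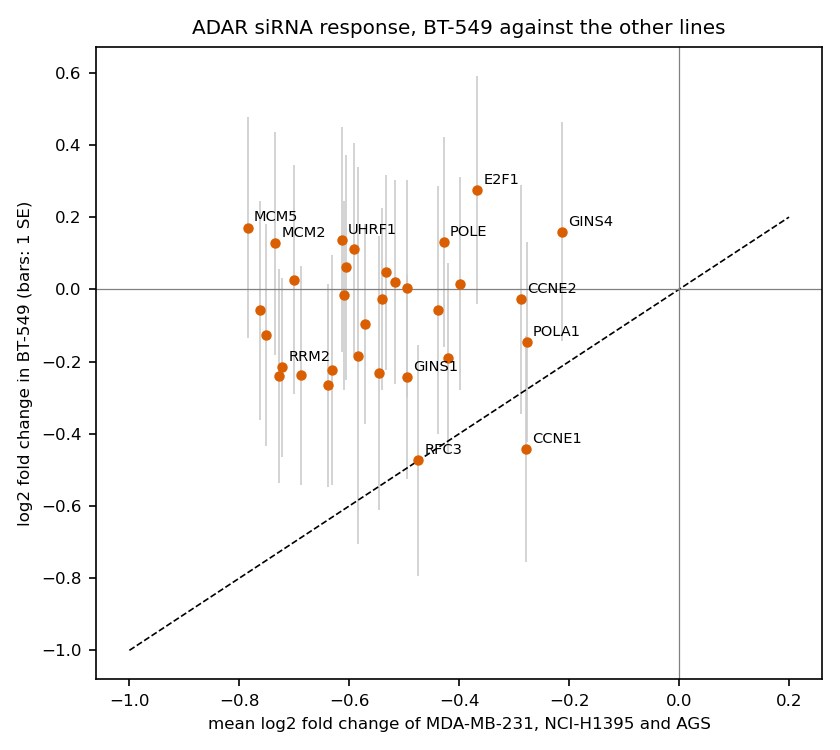
Log2 fold change (ADAR siRNA against control siRNA) in BT-549 (vertical axis, bars of 1 SE from the edgeR fit) against the mean of the other 3 lines (horizontal axis) for the 32 genes; the dashed line marks equal values. Of the 32 points, 31 lie on or above the dashed line and CCNE1 lies below it, and all 32 means on the horizontal axis are below 0.

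ADAR was at 12.9% and 11.5% of control in BT-549 and at 10.6% and 11.9% in NCI-H1395, the lines with the highest and the lowest median of the 32 genes, and the part of its level in the result was not tested. An alternative chosen after seeing the data subtracted from each member the median log2 ratio of the 100 nearest expressed genes on its chromosome. The medians of the 32 genes were then -0.51 and -0.39 in MDA-MB-231, -0.03 and -0.12 in BT-549, -0.51 and -0.88 in NCI-H1395, with AGS at -0.48 and -0.40. The medians of the neighbours themselves ran from -0.38 (at MCM7) to 0.15 in MDA-MB-231 library 1. In AGS library 1 they ran from -0.47 (at UHRF1, itself at -0.78) to 0.27. In the remaining libraries they lay between -0.27 and 0.23.

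Levels in the control libraries were compared between genes only per kilobase of summed exon length. The median of the 32 genes was 25.6 CPM per kilobase in MDA-MB-231, 23.5 in BT-549, 20.6 in NCI-H1395, with AGS lowest at 17.0. GINS3 was the lowest in MDA-MB-231 (2.7 CPM per kilobase) and BT-549 (4.28), and GINS4 in NCI-H1395 (3.72) and AGS (2.89). The highest were MCM3 in MDA-MB-231 (185), PCNA in BT-549 (194) and AGS (207), and MCM7 in NCI-H1395 (148). With 1 control library per line, the order of the lines has no replicate check.

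With NOP14 overexpression the 32 genes stayed close to the PCDH control, each arm being 1 library with no test. NOP14 itself was 851 CPM against 129 CPM, a 6.61-fold level. The median log2 ratio of the 32 genes was 0.002, with 15 of 32 below 0, beside 0.0034 for genes at a mean of 1 CPM or more. The lowest was GINS3 (-0.14) and the highest CDT1 (0.18; 63.4 CPM against 55.9 CPM). For 29 of the 32 the 95% counting interval of the ratio included 1, and the others were CDT1 (1.05 to 1.22), E2F1 (1.05 to 1.17) and RRM1 (0.929 to 0.995). These intervals cover counting error only and say nothing of the spread between cultures. The share of all genes whose interval left out 1 was not counted, so the 3 genes are not read as a response to NOP14.

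The remaining genes of the replication machinery were read from a list of 37 that holds no member. Over the 4 lines 33 of the 37 were below 0 (42.75% of all genes were), with a median log2 fold change of -0.32. None was called by edgeR (0.0182% of all genes), 20 were lower at an unadjusted p under 0.05 (5.08%), and DESeq2 called 13 lower (4.76%). DBF4, the regulatory subunit of the CDC7 kinase that fires origins, was below control in all 8 libraries (-0.56 ± 0.12; edgeR adjusted p = 0.103). RECQL4, a helicase that acts at origins (-0.52 ± 0.13), and POLD2, a subunit of polymerase delta (-0.43 ± 0.12), were below control in 7 of 8 libraries.

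Other genes of nucleotide synthesis, a list of 28, were all below 0 over the lines with a median of -0.19. None was called by edgeR (0.0182% of all genes), 8 were lower at an unadjusted p under 0.05 (5.08%), and DESeq2 called 3 lower (4.76%). DTYMK, which makes thymidine diphosphate (-0.49 ± 0.12), and DUT, which removes dUTP (-0.54 ± 0.15), were near control in BT-549 (-0.13 and 0.01 on the log2 scale). CTPS1, which makes CTP, was below control in all 8 libraries (-0.37 ± 0.11).

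Genes of E2F, RB and G1 cyclin control, a list of 27, were divided, with 15 below 0 and a median of -0.05. CDKN2B, an inhibitor of CDK4 and CDK6, rose over the lines (0.97 ± 0.14, edgeR adjusted p = 0.0363). It was the 1 call by edgeR in the list, where 0.0182% of all genes were called. DESeq2 called it higher and 2 genes lower (5.98% of all genes, either direction). It measured 108 and 175 CPM under ADAR siRNA versus 82.0 CPM in the control of BT-549, 57.3 and 115 versus 38.8 CPM in NCI-H1395, and 36.2 and 101 versus 35.1 CPM in AGS. It had 0 counts in each MDA-MB-231 library, which allows at most 0.202 CPM (3 counts) there, so its value rests on 3 lines, BT-549 included. Its libraries 1 and 2 also differed, with library 2 higher by 1.06 ± 0.19 on the log2 scale (edgeR adjusted p = 0.0455), and AGS library 1 was close to its control. E2F8, a repressor of the E2F family (-0.49 ± 0.15), and CDC25A, the phosphatase that activates CDK2 (-0.38 ± 0.12), were both below control in 7 of 8 libraries and were the 2 called lower by DESeq2, not by edgeR.

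Mitosis genes, a list of 25, were all below 0 with a median of -0.46. None was called by edgeR (0.0182% of all genes), 21 were lower at an unadjusted p under 0.05 (5.08%), and DESeq2 called 14 lower (4.76%). In BT-549 all 25 were below 0 (median -0.23), where the 32 replication genes had 19 of 32 below 0 and a median of -0.04. Of all genes, 42.7% were below 0 there, and the difference between the 2 lists was not tested. CDC20, an activator of the anaphase-promoting complex (-0.66 ± 0.13; edgeR adjusted p = 0.0996), BIRC5, a subunit of the chromosomal passenger complex (-0.60 ± 0.13), and UBE2C, an E2 enzyme of anaphase (-0.62 ± 0.13), had the smallest p of the list.

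**Figure D5:**
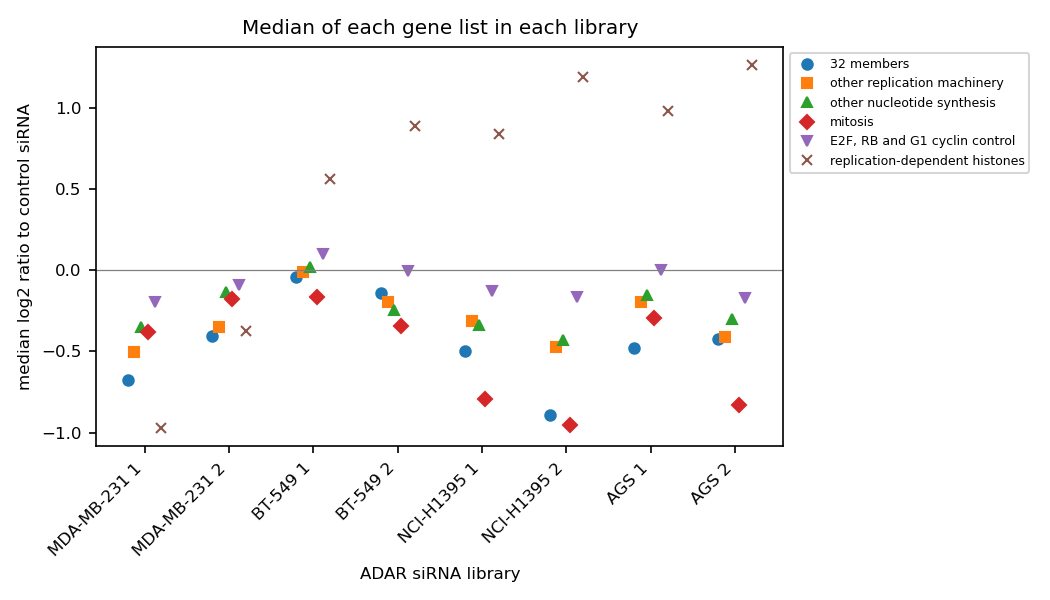
Median log2 ratio of scaled CPM to the control siRNA library (vertical axis) of 6 gene lists in each of the 8 ADAR siRNA libraries (horizontal axis). The 32 replication and nucleotide synthesis genes (circles) are near 0 in the BT-549 libraries (-0.04 and -0.14), the mitosis list (diamonds) is below 0 in all 8, and the replication-dependent histones (crosses) are below 0 in MDA-MB-231 and above 0 in the other 6.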

How the data were processed

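Poly(A)-selected RNA was sequenced in 14 libraries, per the labels' protocols. Per the submitters' processing notes, the authors' tools were STAR 2.7.11a, featureCounts 2.0.6 and fastp 0.23.4, with the build hg38. The authors deposited integer counts per gene, and whether featureCounts used strand is not stated in the labels, so overlapping antisense genes (15 of the 32 members share exon bases with one) and pseudogenes (6 members by name) are uncertain. Besides MCM7, GINS4 and TYMS, the 15 include GINS1 (with NINL), GINS2 (with GSE1), RFC4 (with EIF4A2), PRIM1, LIG1 and CLSPN. PRIM1 shares exon bases with NACA and HSD17B6, among others. FEN1 shares exon bases with FADS2 on its own strand. Of 62702 table lines, 3 broken lines (ANK2) were not used.

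Counts were tested in R 4.3.3 with edgeR 4.0.16 (filterByExpr, TMM, robust quasi-likelihood, Benjamini-Hochberg over all genes tested, threshold 0.05), with DESeq2 1.42.0 as an alternative. Log2 fold changes are printed ± their standard error. NOP14 ratios used a prior count of 2. Promoters and figures were made with Python 3.11.15. CPM are TMM-scaled over all 14 libraries.

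The members and lists were chosen with earlier results of these data known. Full values are given for the 2 members per role with the smallest p over the lines and the 1 with the smallest p in the BT-549 contrast, and for 3 genes of each other list. P-values over the lines are set against how far the responses of the lines differ. Those within a line and for BT-549 against the others are set against the spread between libraries 1 and 2. Those for library 2 against library 1 are set against how far that difference varies between lines. Libraries are not stated to be separate cultures, so the spread between them may be technical. A lone control library is taken to scatter as much as libraries 1 and 2 do.

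Same-numbered libraries of different lines did not move together throughout (correlations of library 2 minus library 1 between lines from -0.0912 to 0.463), so the numbers were not taken as pairs. ADAR siRNA libraries of a line differed by more than counting noise (chi-square per gene 10.6 to 58.7).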

Additional observations from a re-analysis of the deposited data

How the results depend on the processing

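Over the 4 lines all 32 genes stayed below 0 under all 12 alternatives run (scaling, filter, DESeq2, unsummed libraries, leaving out a line or a library number). The number called was 0 as reported, 7 with no count filter (MCM5, MCM7, MCM10, PCNA, RFC4, RRM2 and TYMS; 0.952% of all genes) and 13 by DESeq2 (5.98%, either direction), and 0 when leaving out either library number. In NCI-H1395, DESeq2 called 1 (RRM2; 0.429% of all genes), leaving out a library gave 0 to 1 (PCNA, without library 1; 0.16%), and the replicate block on library number gave 2 (MCM6 and PCNA; 0.622%). The block changed no other count, and whether the numbers pair the libraries is not known: the correlations were above 0.1 among BT-549, NCI-H1395 and AGS (0.199 to 0.463) and not for MDA-MB-231. For library 2 against 1, CDC6 was the 1 call with no count filter (0.686%) and the 1 call without MDA-MB-231 (0.638%). The cause was not tested.

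BT-549 against the other lines changed sign for RFC3 with library totals (-0.095), without NCI-H1395 (-0.16), with the replicate block (-0.021) and with summed libraries (-0.068), and for POLA1 without NCI-H1395 (-0.011). Leaving out each BT-549 library in turn gave -0.35 to 0.31 for RFC3, -0.031 to 0.30 for POLA1, -0.083 to 0.78 for CDC6 and -0.33 to 0.0058 for CCNE1, the lower value of each being without library 1. None of these was called. With summed libraries, where the spread is that between the other lines, no member was called (0.0283% of all genes were). MCM2, MCM5, MCM6, MCM7, LIG1, UHRF1 and E2F1 were higher there at an edgeR unadjusted p under 0.05, from 0.0036 for MCM5 to 0.038 for E2F1. The share of all genes at that level was not counted. The median of the 32 genes in BT-549 was -0.14 without library 1. Library totals in place of TMM shifted every log2 ratio of MDA-MB-231 library 1 by 0.189, and the AGS median was then -0.38. A single control library per line and 3 or 4 residual degrees of freedom limit the precision of every fold change.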

Other observations

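Replication-dependent histone genes, whose transcripts normally end in a stem-loop and lack a poly(A) tail, had a summed level above control in BT-549, NCI-H1395 and AGS and below it in MDA-MB-231. Of 15, 12 were tested over the lines, with 2 below 0 (42.75% of all genes were) and a median log2 fold change of 0.48. None was called over the lines by edgeR or DESeq2. At an unadjusted p under 0.05, 1 was higher and 1 lower (1409 and 1114 of all 21944 genes). Their summed level was 2766 and 3995 CPM under ADAR siRNA versus 5066 CPM in the control of MDA-MB-231, 307 and 349 versus 192 CPM in BT-549, 458 and 455 versus 264 CPM in NCI-H1395, and 39.2 and 49.8 versus 18.9 CPM in AGS. Within lines edgeR called none. DESeq2 called H2BC5 and H4C8 higher in NCI-H1395 and H2AC6 higher in AGS, where it called 0.429% and 0.118% of all genes in either direction. No test compared these genes with the 32. H1-2, a linker histone, measured 36.7 and 40.1 versus 21.1 CPM in BT-549 and 671 and 941 versus 1122 CPM in MDA-MB-231. H4C3 was at 235 CPM with control siRNA in MDA-MB-231 and at most 0.427 CPM in the other lines' controls, and H2BC8 was at 0 in MDA-MB-231.

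Genes of chromatin assembly and maintenance methylation, a list of 7, had 6 below 0 over the lines (42.75% of all genes were) and a median of -0.29. At an unadjusted p under 0.05, 4 were lower (5.08% of all genes), and none was called by edgeR or DESeq2. HELLS, a chromatin remodeller (-0.36 ± 0.12), DNMT1, the maintenance methyltransferase (-0.35 ± 0.12), and CHAF1B, a subunit of the histone chaperone CAF-1 (-0.37 ± 0.14), had the smallest p. In BT-549 these 3 were near control (log2 fold changes of -0.05, 0.04 and -0.01).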
